A study of Homo sapiens with 26 samples.

Results

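Lysosomal hydrolases and membrane proteins were followed through the LOCL-TL data as a list of 36 genes, 31 of them coding for soluble proteins of the lysosomal lumen and 5 for proteins of the lysosomal membrane. The list names each gene, and its rule has no threshold on a measured value. Of the 36 genes, 30 had a footprint entry of their own among the 57770 entries for 1 gene, 6 were counted together with overlapping genes, and all 36 were among the 60663 genes of the RNA-seq. In LOCL-TL, a biotin ligase opened by blue light (LOV-BirA) biotinylates ribosomes near it that carry an Avi tag, and tagged ribosomes are then isolated on streptavidin, so that a pulldown is read against the total input of the same lysate.

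All cells were HEK293T, a human embryonic kidney line, with the tag on endogenous RPL29. Ribosome profiling covered 3 polyclonal lines, with LOV-BirA at the endoplasmic reticulum (ER) as a Sec61β fusion, at the outer mitochondrial membrane (OMM) as an OMP25 tail-anchor fusion, or free in the cytosol, each with 2 replicates of total input and pulldown. For profiling at the ER, the paper describes brief treatment with cycloheximide (CHX), which holds ribosomes on the mRNA, before the light pulse. The titles of the profiling libraries do not name CHX, so it is taken from that description. RNA-seq used the OMM ligase in wild-type (WT) cells with a negative control gRNA, in AKAP1 null cells and in LARP4 null cells, each with 2 replicates and with CHX, and in cells without CHX, 1 replicate, labelled with a shorter pulse of light. Each null genotype was 1 monoclonal line, so the clone and the genotype cannot be told apart, and CHX in the null lines is taken from the general protocol. Coding sequences held 1025114 to 19539527 footprints per library, the fewest in the OMM pulldowns, and RNA-seq libraries held 38347615 to 100840544 counts.

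Of the genes listed for this line, VIM ranged from 1521 to 3628 CPM (counts scaled to the library total) in the 6 footprint total inputs and NEFL from 78.5 to 196, while PAX2 reached 8.05 and LHX1 1.0997, and PTPRC, ALB, MYH6 and CD3E, which mark other tissues, stayed at or below 0.196. AKAP1 RNA was at 115 and 119 CPM in the WT total inputs and 32.2 and 20.3 CPM in the AKAP1 null ones. LARP4 RNA was at 225 and 231 CPM in WT and 79.3 and 74.0 CPM in LARP4 null total inputs. The fitted log2 differences were -2.15 (adjusted p = 0.242) for AKAP1, which edgeR did not call, and -1.56 (adjusted p = 0.0405) for LARP4.

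Lysosomal enzymes are made on ribosomes bound to the ER: a hydrophobic signal peptide at the N terminus directs the nascent chain to the Sec61 channel, and in the Golgi most hydrolases receive a mannose 6-phosphate tag that sorts them to the lysosome. Proteins of the lysosomal membrane enter the ER membrane through a signal peptide or through their first transmembrane segment. Proteins that work on the outer face of the lysosome, such as the Ragulator (LAMTOR) scaffold of the mTORC1 pathway, have neither and are made on free ribosomes. AKAP1 and LARP4 are RNA-binding proteins, AKAP1 being anchored in the OMM.

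The start of the coding sequence holds the signal peptide or first transmembrane segment of many members. The first 120 coding bases (40 codons) of 6 members and of LAMTOR1 follow, read from GENCODE 44 transcripts on GRCh38 and spanning the first or the first and second coding exons. Capitals mark the 19 codons whose encoded residues have the highest mean Kyte-Doolittle hydropathy among the first 40. NPC2 and CD63 are shown as the members with the highest RNA enrichment at the OMM, PSAP and LAMP1 as those with the highest footprint enrichment at the ER, PPT1 as the member with the lowest, NPC1 as the longest protein and LAMTOR1 as a contrast without a signal.
NPC2 (chr14:74493193-74493274 and chr14:74486399-74486436, minus strand): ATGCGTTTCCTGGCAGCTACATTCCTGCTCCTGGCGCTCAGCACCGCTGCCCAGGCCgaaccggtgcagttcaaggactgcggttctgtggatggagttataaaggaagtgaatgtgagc
CD63 (chr12:55728276-55728341 and chr12:55727286-55727339, minus strand): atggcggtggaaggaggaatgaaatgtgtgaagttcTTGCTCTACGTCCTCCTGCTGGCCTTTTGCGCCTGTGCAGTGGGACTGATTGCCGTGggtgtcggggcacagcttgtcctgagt
PSAP (chr10:71851182-71851221 and chr10:71834426-71834505, minus strand): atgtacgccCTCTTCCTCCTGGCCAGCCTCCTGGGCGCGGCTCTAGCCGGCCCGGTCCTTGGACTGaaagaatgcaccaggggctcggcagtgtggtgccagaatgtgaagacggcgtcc
LAMP1 (chr13:113297435-113297495 and chr13:113306485-113306543, plus strand): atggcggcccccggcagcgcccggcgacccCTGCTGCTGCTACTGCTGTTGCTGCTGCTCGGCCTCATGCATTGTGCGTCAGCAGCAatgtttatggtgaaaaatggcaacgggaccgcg
PPT1 (chr1:40097119-40097238, minus strand): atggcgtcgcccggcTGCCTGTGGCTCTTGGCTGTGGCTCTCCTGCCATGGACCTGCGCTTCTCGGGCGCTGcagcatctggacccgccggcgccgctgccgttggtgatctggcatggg
NPC1 (chr18:23586287-23586343 and chr18:23573512-23573574, minus strand): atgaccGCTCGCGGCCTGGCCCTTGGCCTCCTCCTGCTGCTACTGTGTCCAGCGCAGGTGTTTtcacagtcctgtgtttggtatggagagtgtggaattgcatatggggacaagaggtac
LAMTOR1 (chr11:72103183-72103224 and chr11:72099179-72099256, minus strand): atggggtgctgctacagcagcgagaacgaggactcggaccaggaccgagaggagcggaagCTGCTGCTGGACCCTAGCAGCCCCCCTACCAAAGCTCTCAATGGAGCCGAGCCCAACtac

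The marked stretch began at codon 1 in NPC2, codon 4 in PSAP, codon 11 in LAMP1, codon 13 in CD63, codon 6 in PPT1 and codon 3 in NPC1, with a mean hydropathy of 1.43, 2.16, 2.48, 2.8, 1.57 and 1.84, against -0.432 for LAMTOR1. Codons with T at the second position, all of which encode hydrophobic residues, made up 12 of 19 in LAMP1, 11 of 19 in CD63 and 7 of 19 in PPT1, against 4 of 19 in LAMTOR1. Over whole lists, the N-terminal maximum ranged from 0.684 to 2.38 (median 1.69) in the 31 soluble members and from 1.84 to 2.8 (median 2.21) in the 5 membrane members, while the 19 listed cytosolic proteins of the lysosome surface ranged from -1.39 to 1.04 (median 0.321). The lists overlapped. The 14 other membrane proteins of the pathway ranged from -0.895 to 2.79 with a median of 0.287, below that of the cytosolic list, and 19 of the 31 soluble members were above 1.6, NPC2 and PPT1 not among them. The lowest soluble value was that of MAN2B1, whose most hydrophobic stretch lies further into the protein. Soluble members encode 151 to 1011 residues (median 509), from NPC2 to MAN2B1, and membrane members 238 to 1278 residues, from CD63 to NPC1.

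In the total inputs, PSAP, the precursor of the sphingolipid activator proteins, carried the most footprints per length, with a deposited RPKM of 359.8 to 632 (median 411) over the 6 total inputs of the 3 lines. CD63 followed with a median of 315 (274 to 648), then LAMP2 with 249 (213 to 269.9) and LAMP1 with 179 (128 to 203), and the ranges of PSAP and CD63 overlapped. The lowest medians were 0.357 for IDUA, 1.802 for CTSZ and 1.89 for ASAH1. Together with CTSL, GALNS, SGSH and SMPD1, those genes held fewer than 64 footprints in at least 1 ER and at least 1 OMM total input. They were left out of the ER and OMM tests, and SGSH and SMPD1 could be tested in the cytosol. The authors left out coding positions that are not unique, and the length over which footprints were counted was short for some genes: CD63 was counted over 131 nt, CTSL over 166, CTSA over 253, and SCARB2 and PPT1 each over 272.

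At the ER, all 23 members that could be tested were enriched in the pulldown, 18 soluble and 5 membrane, where 19.9% of the 7390 genes tested were called higher (edgeR quasi-likelihood, Benjamini-Hochberg adjusted over all genes tested). Their fitted log2 ratios of pulldown to total input ran from 0.72 to 2.43 with a median of 2.01, and the median over all genes tested was -0.68. PSAP, at the top, had 1421 and 1424 CPM in the total inputs and 9197 and 6399 CPM in the pulldowns (replicates 1 and 2). Both pulldowns stood far above both total inputs, and the fitted log2 ratio was 2.43 ± 0.11 (SE, adjusted p = 4.27e-12).

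The membrane proteins LAMP1 and LAMP2, heavily glycosylated proteins that line the lysosome, and NPC1, which exports cholesterol from it, were close to PSAP. LAMP1 had 523 and 471 CPM in the total inputs and 2981 and 2012 CPM in the pulldowns, a fitted log2 of 2.31 ± 0.13 (SE, adjusted p = 1.67e-11). LAMP2 had 652 and 706 CPM in the total inputs and 3463 and 3122 CPM in the pulldowns, a fitted log2 of 2.28 ± 0.10 (SE, adjusted p = 3.52e-12). NPC1 had 255.6 and 290.2 CPM in the total inputs and 1328 and 1228 CPM in the pulldowns, a fitted log2 of 2.23 ± 0.10 (SE, adjusted p = 3.68e-12). The other membrane members, SCARB2, a glycoprotein that is anchored in the membrane at both ends and also acts as a sorting receptor, and CD63, a tetraspanin, were enriched less than these.

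SCARB2 had 19.8 and 14.1 CPM in the total inputs and 45.1 and 37.2 CPM in the pulldowns, a fitted log2 of 1.27 ± 0.16 (SE, adjusted p = 8.49e-07). CD63 had 89.0 and 84.6 CPM in the total inputs and 215 and 199.7 CPM in the pulldowns, a fitted log2 of 1.26 ± 0.16 (SE, adjusted p = 9.91e-07). For both genes the pulldowns lay above the total inputs in each replicate, and both are counted over fewer than 300 nt. The lowest value of all was that of PPT1, palmitoyl-protein thioesterase, with 76.1 and 40.6 CPM in the total inputs and 109 and 79.6 CPM in the pulldowns and a fitted log2 of 0.72 ± 0.13 (SE, adjusted p = 3.38e-05), where replicate 2's pulldown was only slightly above replicate 1's total input.

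By role, the 4 activators and carriers had a median log2 of 2.24 at the ER, with GM2A, the activator of ganglioside breakdown, at 2.30 ± 0.11 (replicates 2.33 and 2.26) and NPC2, which hands cholesterol to NPC1, at 1.82 ± 0.09. The 7 glycosidases tested had a median of 1.98, from MANBA (beta-mannosidase, 1.58 ± 0.16) and GLA (alpha-galactosidase A, 1.59 ± 0.09) to NEU1 (sialidase, 2.13 ± 0.11). The 2 sulfatases tested, ARSA and ARSB, were at 2.11 ± 0.20 and 2.07 ± 0.15. LIPA, the acid lipase, was at 2.26 ± 0.11. The 3 proteases tested were lower, with CTSA, which protects GLB1 and NEU1, at 1.39 ± 0.15 (replicates 1.17 and 1.68), CTSC at 1.48 ± 0.14 and CTSB at 1.63 ± 0.12. Across the 23 genes, the fitted ER value had a Spearman correlation of 0.66 with the counted length and 0.12 with the protein length, against -0.28 and -0.36 over all genes tested. These are correlations across genes that share libraries and are not independent replicates, and the part of the counted length in the result was not tested.

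**Figure D1:**
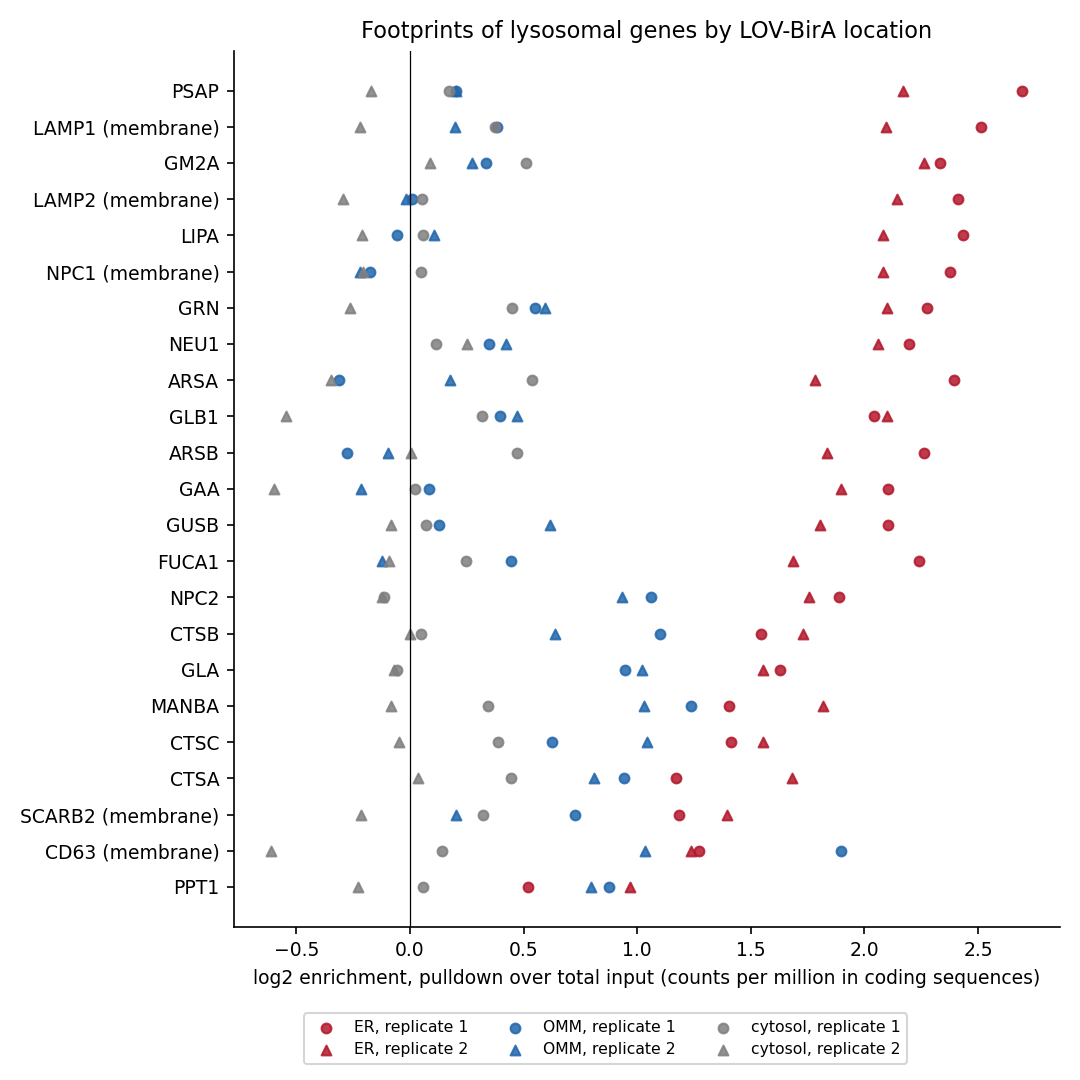
Log2 enrichment (pulldown over total input, CPM in coding sequences) of the 23 members tested at the ER, 1 point per replicate (circle, replicate 1, triangle, replicate 2), coloured by LOV-BirA location and ordered by the fitted ER value. ER points lie to the right of the cytosol points in every row, and OMM points reach or pass the ER points for CD63 and PPT1.

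The cytosolic ligase gave no such pattern. None of the 25 members tested was called in either direction (edgeR quasi-likelihood), where 7.99% of 7173 genes were, 2 members had an unadjusted p below 0.05, and DESeq2 also called 0. With the authors' mapped-read totals in place of coding totals, which moved the median over all genes to 0.25, 5 members were called higher (ARSB, CTSA, CTSC, GM2A and NEU1). The fitted log2 ratios ran from -0.30 ± 0.13 for GAA, the acid alpha-glucosidase, to 0.31 ± 0.11 for GM2A, and the median was 0.03 beside 0.02 over all genes. The replicates stood apart here, with a median of 0.21 for soluble and 0.14 for membrane members in replicate 1 and -0.10 and -0.22 in replicate 2, while the median over all genes was 0.01 and 0.02. Without replicate 1, CD63, GAA and GLB1 were called lower, and without replicate 2, GM2A, GRN and LAMP1 were called higher. Shares over all genes are not given for the mapped-read totals or for the fits with 1 replicate left out. Whether these calls and shifts are particular to the members was not tested. Replicate values were 0.02 and -0.60 for GAA, 0.14 and -0.61 for CD63, 0.03 and -0.30 for SGSH and 0.05 and -0.29 for LAMP2 at the low end, and 0.51 and 0.09 for GM2A, 0.47 and 0.00 for ARSB, 0.44 and 0.03 for CTSA and 0.46 and -0.11 for SMPD1 at the high end. The remaining membrane members had 0.37 and -0.22 (LAMP1), 0.05 and -0.21 (NPC1) and 0.32 and -0.22 (SCARB2).

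Set directly against the cytosol, ER enrichment was higher for all 23 members, where 19.6% of 6819 genes were called higher. The difference of log2 ratios ran from 0.79 ± 0.18 for PPT1, 1.11 ± 0.22 for CTSA, 1.20 ± 0.23 for SCARB2 and 1.28 ± 0.19 for CTSC to 2.31 ± 0.18 for GAA, 2.33 ± 0.15 for LIPA, 2.40 ± 0.14 for LAMP2 and 2.43 ± 0.16 for PSAP. CD63 (1.48 ± 0.23), LAMP1 (2.22 ± 0.17) and NPC1 (2.31 ± 0.14) lay between them. The largest adjusted p among the 23 was 5.22e-04, that of PPT1.

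At the OMM, 11 of 23 members were enriched and none was called lower, where 17.0% of 6742 genes were called higher. With TMM factors, which centre the genes near 0 and move the median over all genes from -0.38 to -0.06, 18 of 23 members were called higher, beside 25.8% of all genes. Over all genes the split of calls was 1144 higher and 3094 lower by library totals and 1742 and 1646 with TMM. CD63 was highest. It had 84.0 and 102 CPM in the total inputs and 313 and 209.8 CPM in the pulldowns, so each pulldown was above both total inputs, and the fitted log2 was 1.44 ± 0.18 (SE, adjusted p = 2.55e-06). The replicates differed, at 1.899 and 1.03.

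The next members were soluble enzymes and carriers. MANBA had 18.2 and 14.2 CPM in the total inputs and 42.6 and 29.1 CPM in the pulldowns, a fitted log2 of 1.13 ± 0.22 (SE, adjusted p = 2.54e-04). NPC2 had 140.0 and 151 CPM in the total inputs and 291 and 288 CPM in the pulldowns, a fitted log2 of 0.99 ± 0.10 (SE, adjusted p = 2.95e-07). GLA had 245 and 266 CPM in the total inputs and 472 and 539 CPM in the pulldowns, a fitted log2 of 0.99 ± 0.09 (SE, adjusted p = 1.31e-07). In each of these genes both pulldowns were above both total inputs, and the fitted value was below the same gene's value at the ER.

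The 3 proteases tested were all called, CTSA at 0.87 ± 0.19, CTSC at 0.85 ± 0.16 and CTSB at 0.84 ± 0.15, as were PPT1 at 0.84 ± 0.14, GRN (progranulin) at 0.57 ± 0.13, GLB1 at 0.43 ± 0.17 and NEU1 at 0.39 ± 0.13. Of the membrane members only CD63 was called. LAMP1 had replicate log2 ratios of 0.38 and 0.20 (adjusted p = 0.0559), SCARB2 0.73 and 0.20 (adjusted p = 0.114), LAMP2 0.01 and -0.02 (adjusted p = 0.972) and NPC1 -0.18 and -0.22 (adjusted p = 0.118). At the low end stood also the sulfatases ARSB and ARSA, with replicates of -0.28 and -0.09 and -0.31 and 0.18, and GAA with 0.08 and -0.21. Counts here were the lowest of the study: in OMM pulldown replicate 1, ARSA held few footprints and its SE was 0.33. Leaving out OMM replicate 1 left 9 of 23 members called, and leaving out replicate 2 left 7 of 25, with CD63, NPC2, GLA, MANBA, CTSA, CTSB and PPT1 called both times.

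Against the cytosol, OMM enrichment was higher for 9 of 23 members and lower for none, where 16.5% of 6482 genes were called higher. With TMM factors 16 members were called higher and with DESeq2 15, both of which moved the median over all genes from -0.36 to near 0. Shares over all genes are not given for these settings or for the fits with 1 replicate left out. Whether the changed counts are particular to the members was not tested. CD63 had the largest difference, 1.67 ± 0.24 (SE, adjusted p = 2.22e-05), followed by NPC2 at 1.11 ± 0.14, GLA at 1.05 ± 0.13 and MANBA at 0.98 ± 0.27. The smallest were -0.49 ± 0.27 for ARSB, -0.13 ± 0.15 for NPC1, -0.12 ± 0.38 for ARSA and -0.01 ± 0.17 for GM2A, none of them called, with LAMP2 (0.11), LAMP1 (0.20) and SCARB2 (0.38) also not called. Leaving out cytosol replicate 2 left 6 members called higher and 1 lower, and leaving out either OMM replicate left 6, while leaving out cytosol replicate 1 gave 13.

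The direct contrast of ER with OMM enrichment separated the members from each other. Of 23, 19 were more enriched at the ER, where 18.5% of 6691 genes were called higher, and none was more enriched at the OMM. The median difference was 1.64 for the members and -0.28 for all genes. NPC1 had the largest, 2.43 ± 0.15 (SE, adjusted p = 3.10e-10), followed by LAMP2 at 2.28 ± 0.14, ARSB at 2.26 ± 0.25 and PSAP at 2.23 ± 0.16, with LAMP1 at 2.02 ± 0.18. SCARB2 was called at 0.82 ± 0.29 (SE, adjusted p = 0.0255), a call lost without ER replicate 1, ER replicate 2 or OMM replicate 2.

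The 4 members that were not called were CD63, PPT1, MANBA and CTSA. CD63 had ER replicates of 1.27 and 1.24 beside OMM replicates of 1.899 and 1.03, a difference of -0.18 ± 0.24 (SE, adjusted p = 0.543). PPT1 had 0.52 and 0.97 beside 0.87 and 0.80, a difference of -0.11 ± 0.19 (SE, adjusted p = 0.651). For PPT1 the OMM values lay between the ER values, for CD63 the ER values lay between the OMM values, and no difference was detectable at this depth. MANBA differed by 0.45 ± 0.27 (SE, adjusted p = 0.176) and CTSA by 0.52 ± 0.24 (SE, adjusted p = 0.0853). Apart from MANBA, these are genes counted over fewer than 300 nt. Across the 23 members, the fitted OMM value had a Spearman correlation of -0.72 with the counted length and -0.35 with the protein length. Over all genes tested the values were -0.55 and -0.62. The part of the counted length in the result was not tested.

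Soluble and membrane members were compared by their medians in each replicate, as a description with no test, since only 5 genes form the membrane list. At the ER, the soluble median minus the membrane median was -0.27 in each replicate (2.104 beside 2.38, and 1.81 beside 2.08), with ranges that overlapped (0.52 to 2.69 and 1.18 to 2.51 in replicate 1). At the OMM the soluble median was higher by 0.04 and 0.33, and in the cytosol by 0.07 and 0.11. The membrane genes spread widely at the OMM, from -0.18 (NPC1) to 1.899 (CD63) in replicate 1 and from -0.22 to 1.03 in replicate 2, about as far as the 18 soluble genes, which spanned -0.31 to 1.24 and -0.21 to 1.04.

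The other genes of the pathway placed the members. At the ER, all 4 tested of the 6 sorting genes were enriched, from 1.81 ± 0.14 for GNPTAB, a subunit of the enzyme that starts the mannose 6-phosphate tag, and 2.08 ± 0.10 for IGF2R to 2.34 ± 0.11 for SORT1 and 2.38 ± 0.16 for M6PR, the latter 3 being sorting receptors. All 11 tested of the other lumenal proteins were enriched, from 1.91 ± 0.11 (ACP2) to 2.29 ± 0.14 (AGA), as were all 9 tested of the other membrane proteins, from 1.501 ± 0.11 (TMEM106B) and 1.69 ± 0.09 (LAPTM4A) to 2.15 ± 0.15 (TMEM192) and 2.15 ± 0.13 (HGSNAT). Of the cytosolic proteins of the lysosome surface, 0 of 13 were called higher and 11 lower, with VPS11 (-1.19 ± 0.17) and VPS16 (-1.19 ± 0.12), of the HOPS tethering complex, lowest and LAMTOR2 (-0.23 ± 0.09) and LAMTOR3 (0.01 ± 0.15) highest, the last not called. The median of the cytosolic list, -0.73, was close to that over all genes, -0.68, of which 5322 of 7390 were called lower. With TMM factors the median over all genes at the ER moved to -0.03, and the 23 members were called higher on that scale too.

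Of the same cytosolic genes, 5 of 11 were called higher at the OMM and 5 lower. Over all genes 17.0% of 6742 were called higher there, and the share called lower was close to that of this list. All 5 LAMTOR genes, coding for the Ragulator subunits, which are 91 to 161 residues long, were enriched there, LAMTOR4 at 1.49 ± 0.16, LAMTOR2 at 1.22 ± 0.10, LAMTOR5 at 0.98 ± 0.11, LAMTOR1 at 0.59 ± 0.13 and LAMTOR3 at 0.44 ± 0.19. LAMTOR4 and LAMTOR2 thus had OMM values in the range of CD63 and NPC2, but ER values of -0.26 and -0.23, against 1.26 and 1.82.

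**Figure D2:**
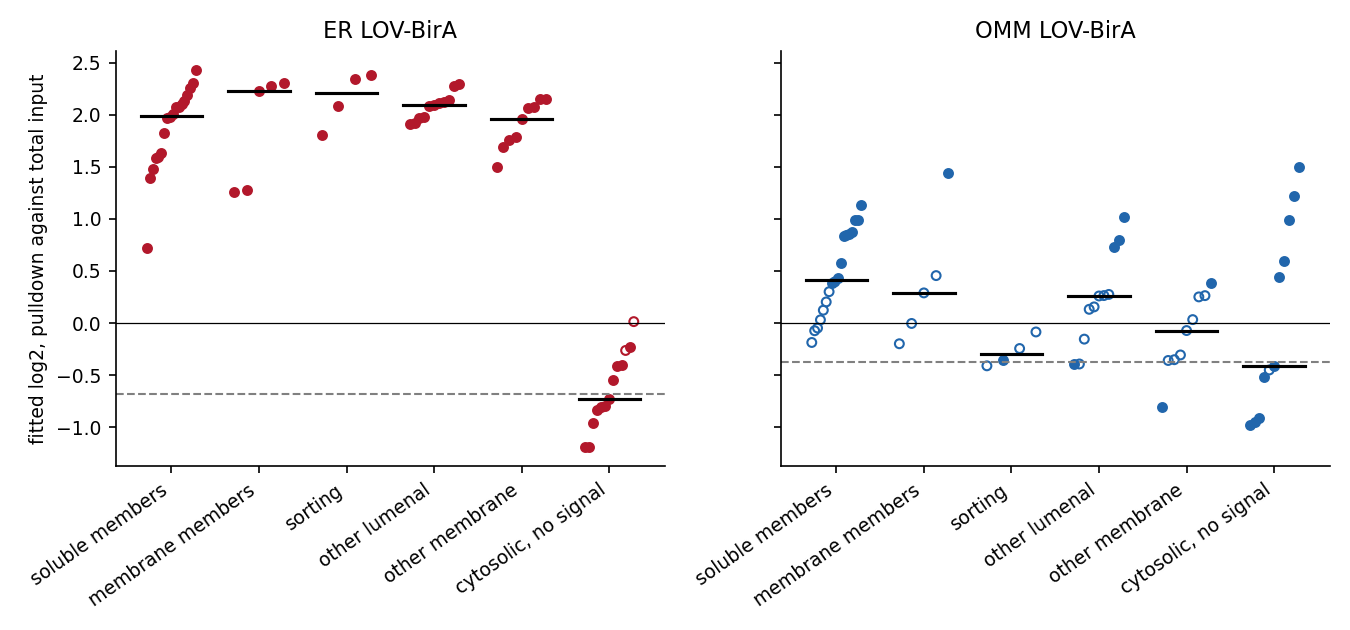
Fitted log2 ratio of pulldown to total input at the ER (left) and the OMM (right) for the soluble and membrane members and the other lists of the pathway, 1 point per gene, filled where the adjusted p was below 0.05. Black bars are list medians, 1.99 for the soluble and 2.23 for the membrane members at the ER, and the dashed line is the median over all genes tested, -0.68 at the ER and -0.38 at the OMM. At the ER the lumenal, membrane and sorting lists lie above every cytosolic gene, and at the OMM they overlap the cytosolic list.

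For 6 members the footprint entry is shared with overlapping genes, so their values cannot be given to the member alone and were not tested. The entry with NAGLU gave replicate log2 ratios of 2.20 and 2.02 at the ER and -0.26 and 0.36 at the OMM, that with MAN2B1 (and DHPS and WDR83OS) 2.02 and 1.97 and 0.49 and 0.51, and that with IDS 1.96 and 1.53 and -0.76 and -0.42. The entries with HEXA (and PARP6 and CELF6) and with CTSD (and IFITM10) gave 1.49 and 1.31 and 1.30 and 1.40 at the ER beside 1.13 and 1.54 and 1.32 and 1.69 at the OMM. The entry with TPP1 also holds TAF10, a subunit of the transcription factor TFIID, and gave -0.34 and -0.07 at the ER and 1.59 and 1.57 at the OMM. Among the 7 members with too few footprints, IDUA (1.94 and 1.85), SMPD1 (2.11 and 2.45), SGSH (2.29 and 1.48), CTSZ (1.63 and 1.4997), GALNS (1.43 and 0.84) and CTSL (0.87 and 1.09) had positive replicate values at the ER, and ASAH1, with as few as 7.75 footprints in a total input, had -1.06 and -0.87.

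RNA-seq of the OMM pulldown, which reads whole transcripts rather than footprints, could test 35 members, all but IDUA. In WT cells, 17 were enriched and 5 depleted, where 20.2% of the 13856 genes tested were called higher and 45.6% lower. With TMM factors, which move the median over all genes from -0.28 to 0.01, 27 members were called higher, where 31.0% of all genes were, and 2 lower, IDS and NPC1. With either WT replicate left out, fewer members were called in each direction, and whether this is particular to the members was not tested.

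CD63 and NPC2 stood apart from the other members. CD63 RNA had 109 and 103 CPM in the total inputs and 329 and 260.5 CPM in the pulldowns, a fitted log2 of 1.47 ± 0.13 (SE, adjusted p = 4.68e-05). NPC2 RNA had 46.8 and 39.2 CPM in the total inputs and 131 and 102 CPM in the pulldowns, a fitted log2 of 1.43 ± 0.10 (SE, adjusted p = 1.67e-05). Every pulldown of these genes was more than both total inputs, and the third highest member, CTSD (cathepsin D), was at 0.65 ± 0.13 (SE, adjusted p = 0.00227), with replicates of 0.85 and 0.46, followed by CTSL (cathepsin L) with 0.81 and 0.40 and 0.61 ± 0.12 (SE, adjusted p = 0.00233).

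The depleted members were IDS, iduronate 2-sulfatase, NPC1, MANBA, SCARB2 and LAMP2. IDS RNA had 5.61 and 7.66 CPM in the total inputs and 2.25 and 1.67 CPM in the pulldowns, a fitted log2 of -1.76 ± 0.29 (SE, adjusted p = 7.97e-04), with both pulldowns below both total inputs. IDS overlaps other annotated genes, so its count is less certain. The same holds for CTSD, TPP1, HEXA, MAN2B1 and NAGLU, and the part of the overlap in their RNA values was not tested. NPC1 RNA had 98.9 and 78.8 CPM in the total inputs and 70.6 and 47.4 CPM in the pulldowns, a fitted log2 of -0.61 ± 0.10 (SE, adjusted p = 7.95e-04). MANBA had replicates of -0.39 and -0.53 (fitted -0.46 ± 0.11, adjusted p = 0.00567), SCARB2 -0.31 and -0.54 (fitted -0.42 ± 0.10, adjusted p = 0.00700) and LAMP2 -0.16 and -0.44 (fitted -0.30 ± 0.10, adjusted p = 0.0337). LAMP1 had 0.38 and 0.08 and was not called (adjusted p = 0.119).

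Membrane members held the highest and 3 of the 5 lowest RNA values. Their median log2 was -0.30, against 0.32 for the 30 soluble members, and the soluble minus membrane difference of medians was 0.55 and 0.63 in the WT replicates. By role, 5 of 7 proteases, 5 of 10 glycosidases, 1 of 5 sulfatases, 2 of 4 lipid hydrolases and 3 of 4 activators and carriers were called higher. Enrichment was lower for longer proteins across the 35 members (Spearman correlation -0.50) and also across the 12098 genes with a length (-0.56), a description across genes that share libraries. CD63 and NPC2 are among the 3 shortest of the 36 proteins, at 238 and 151 residues, GM2A being the other with 193, and NPC1 is the longest. GM2A RNA had 0.28 and 0.14 and was not called (adjusted p = 0.112).

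Footprints and RNA gave different orders for some genes. Across the 23 members measured both ways, the fitted OMM values had a Spearman correlation of 0.49, against 0.72 over the 6736 genes with both, from separate libraries and as a description across genes. CD63 had 1.44 ± 0.18 by footprints and 1.47 ± 0.13 by RNA, and NPC2 0.99 ± 0.10 and 1.43 ± 0.10. MANBA was called higher by footprints (1.13 ± 0.22) and lower by RNA (-0.46 ± 0.11), the latter call lost with TMM factors, and CTSC had 0.85 ± 0.16 and -0.02 ± 0.09. The difference between the 2 kinds of library was not tested.

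**Figure D3:**
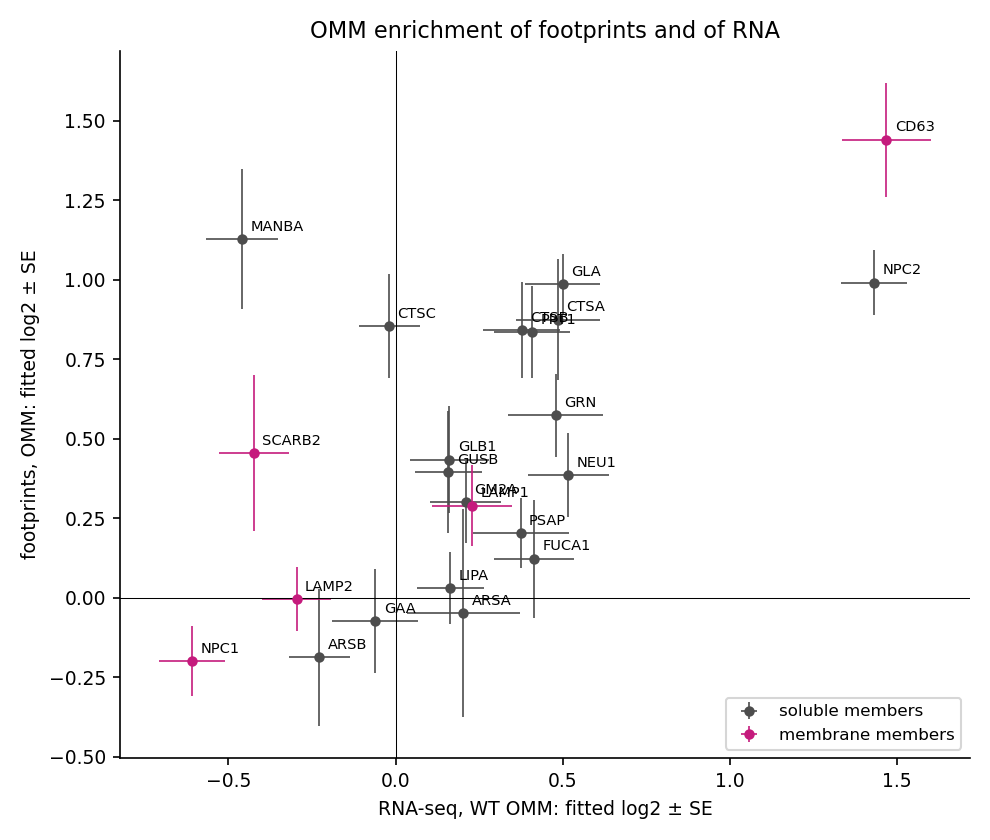
Fitted log2 ratio of pulldown to total input at the OMM for the 23 members measured both ways, by RNA-seq of WT cells (x axis) and by footprints (y axis), with bars of 1 SE and membrane members in pink. CD63 and NPC2 lie at the upper right, NPC1 at the lower left, and MANBA at the upper left.

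In AKAP1 null cells, 27 of 35 members were enriched at the OMM, where 13.9% of genes were called higher, and 1, IDS, was depleted, where 28.1% were called lower. Fewer members were called higher when either AKAP1 null replicate was left out, and whether this is particular to the members was not tested. Set against WT in the same fit, 4 members had higher enrichment, where 6.52% of 13856 genes did, and 1 lower, where 7.96% did. NPC2 was the member that fell. Its WT ratios were 1.48 and 1.38 and its AKAP1 null ratios 0.81 and 0.83, with 49.7 and 41.4 CPM in the total inputs and 87.1 and 73.3 CPM in the pulldowns, and the difference was -0.61 ± 0.14 (SE, adjusted p = 0.0218). CD63 had WT ratios of 1.59 and 1.34 and AKAP1 null ratios of 0.85 and 1.01, a difference of -0.54 ± 0.19 that missed the threshold (adjusted p = 0.0858) and passed it with DESeq2, which kept the calls of NPC2 and LAMP2 and lost those of LIPA, SCARB2 and NPC1 (adjusted p = 0.109, 0.164 and 0.189).

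The members with higher enrichment than in WT were LAMP2, LIPA, SCARB2 and NPC1, 3 of them membrane proteins that were depleted in WT. LAMP2 went from -0.16 and -0.44 in WT to 0.46 and 0.26 in the null line, a difference of 0.66 ± 0.15 (SE, adjusted p = 0.0225). LIPA went from 0.31 and 0.01 to 0.69 and 0.78, a difference of 0.57 ± 0.14 (SE, adjusted p = 0.0328). SCARB2 went from -0.31 and -0.54 to 0.13 and 0.12, a difference of 0.55 ± 0.15 (SE, adjusted p = 0.0420). NPC1 went from -0.49 and -0.73 to -0.20 and 0.02, a difference of 0.52 ± 0.14 (SE, adjusted p = 0.0412). LAMP1, from 0.38 and 0.08 to 0.67 and 0.57, was not called (difference 0.39 ± 0.17, adjusted p = 0.144).

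These calls depend on the scale and on each library. The median over all genes was 0.19, the median of the members 0.28, and with TMM factors, which take the median of all genes to 0.01, NPC2 alone was called (-0.79), where 10.3% of genes were called lower, and the split over all genes changed from 903 higher and 1103 lower to 285 and 1424. Leaving out any 1 of the 4 lysates left 0 members called. Both AKAP1 null values lay above both WT values for 26 of 35 members, where 53.4% of all genes did so, and below them for 2, NPC2 and CD63, where 22.3% did. The smallest differences besides NPC2 and CD63 were those of IDS (-0.34 ± 0.39, replicates -1.32 and -2.19 in WT and -1.91 and -2.28 in the null line) and HEXA (0.03 ± 0.15, replicates 0.38 and 0.23 and 0.19 and 0.48). The difference had a Spearman correlation with protein length of 0.50 over 12098 genes and 0.21 over the 35 members. NPC2 encodes 151 residues and CD63 238, but GM2A, with 193, had a difference of 0.15. NPC1, which rose, encodes 1278, and the part of length in these values was not tested.

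Among the cytosolic genes of the lysosome surface, 4 of 19 decreased in the AKAP1 null line, where 7.96% of 13856 genes did. LAMTOR4 fell by 1.84, LAMTOR2 by 1.29, LAMTOR1 by 0.98 and LAMTOR5 by 0.85 on the log2 scale. They were the genes of that list that were called higher in WT (2.01, 1.83, 1.096 and 0.88). These genes encode only 91 to 161 residues, and the part of protein length in their fall was not tested. FNIP1 rose, by 0.51, from a WT value of -1.38. Genes called higher in the other lists included IGF2R, MAN2B2 and TMEM106B, and none was called lower.

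**Figure D4:**
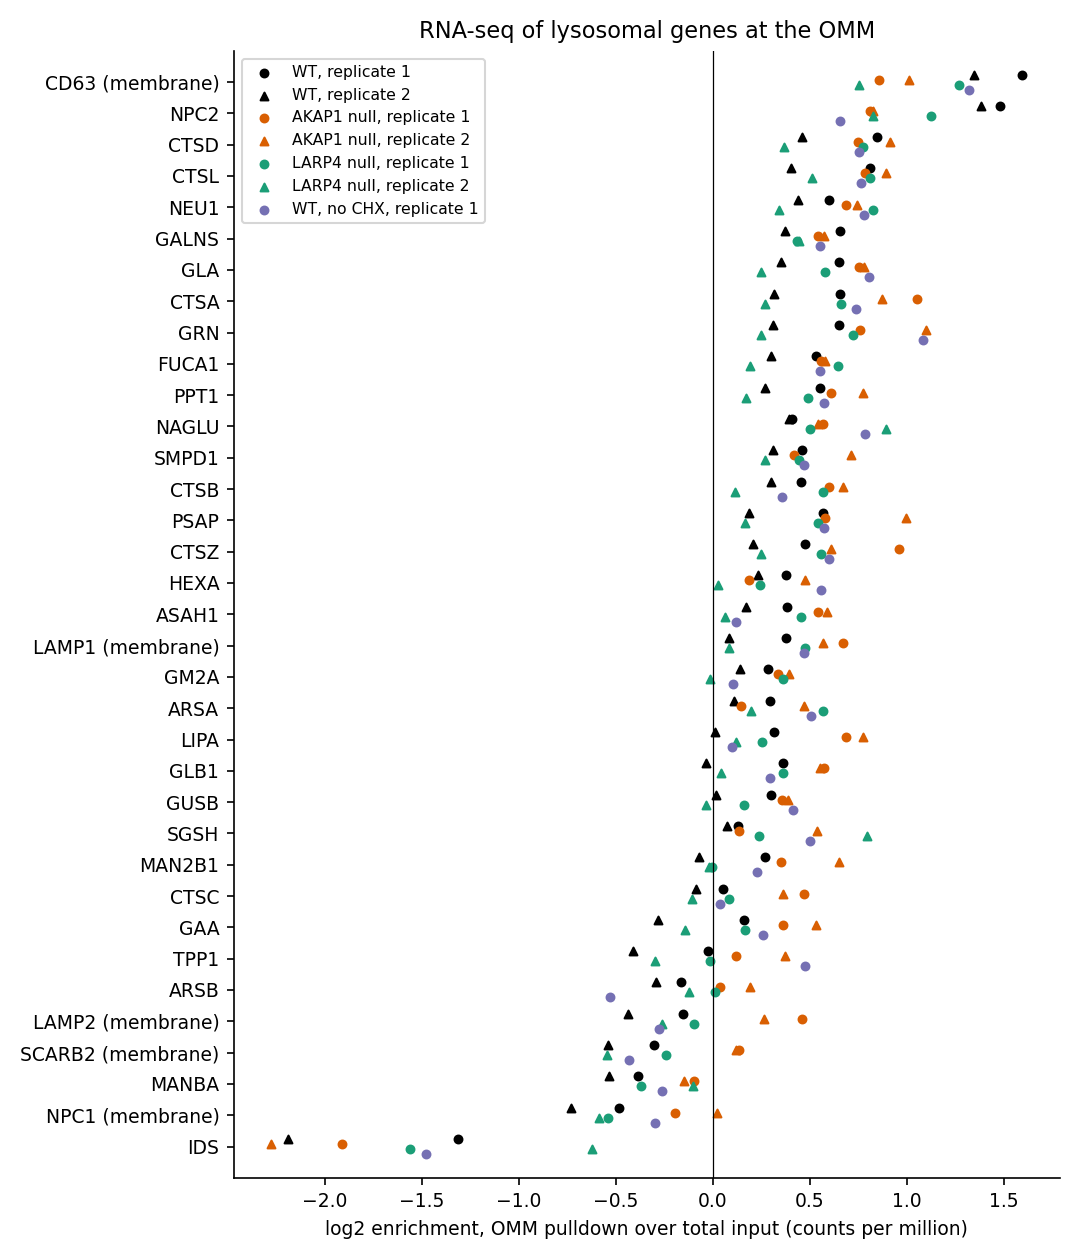
Log2 enrichment (OMM pulldown over total input, CPM) of the 35 members tested in RNA-seq, 1 point per replicate (circle, replicate 1, triangle, replicate 2), for WT, AKAP1 null, LARP4 null and cells without CHX, ordered by the fitted WT value. The AKAP1 null points lie to the left of the WT points for CD63 and NPC2 and to the right for 26 members.

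In LARP4 null cells, 16 of 35 members were enriched at the OMM and 3 depleted (IDS, NPC1 and SCARB2), where 22.8% and 30.0% of genes were called. Fewer members were called higher without LARP4 null replicate 1 and more without replicate 2. Whether these shifts are particular to the members was not tested. Against WT, 0 members and 0% of 13856 genes were called by edgeR, and 2 members and 2270 genes had an unadjusted p below 0.05. DESeq2, whose count over all genes is not given here, called 2 members, CD63 and NPC2, both lower. Whether those calls are particular to the members was not tested. CD63 had LARP4 null ratios of 1.27 and 0.75 beside 1.59 and 1.34 in WT, a difference of -0.46 ± 0.19 (SE, adjusted p = 0.299), and NPC2 had 1.13 and 0.82 beside 1.48 and 1.38, a difference of -0.46 ± 0.14 (SE, adjusted p = 0.299). The next lowest were HEXA, with 0.24 and 0.02 (-0.17 ± 0.15), and MAN2B1, with -0.00 and -0.02 (-0.11 ± 0.16). The highest were IDS (-1.56 and -0.62, 0.66 ± 0.38), SGSH, heparan N-sulfatase (0.24 and 0.79, 0.42 ± 0.21), NAGLU (0.50 and 0.89, 0.30 ± 0.17) and MANBA (-0.37 and -0.11, 0.22 ± 0.15).

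The LARP4 null replicates differed from each other, with a soluble median of 0.45 in replicate 1 and 0.17 in replicate 2 while the median of all genes went from -0.15 to 0.01. The membrane members had 0.47 and 0.08 (LAMP1), -0.10 and -0.26 (LAMP2), -0.24 and -0.55 (SCARB2) and -0.54 and -0.59 (NPC1). Without LARP4 null replicate 1, 5 members were called against WT, NPC2 and CD63 lower and IDS, NAGLU and SGSH higher, along with 4517 genes higher and 1142 lower over all genes, and without replicate 2 no member was.

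The RNA levels of the members in the total inputs did not give a called difference between genotypes. In AKAP1 null against WT cells, 0 of 35 members and 0% of 13977 genes were called by edgeR, with 2 members and 489 genes at an unadjusted p below 0.05, and DESeq2 called 15 genes, none of them a member. The largest fitted differences were 0.84 ± 0.28 for IDS (12.5 and 11.1 CPM beside 5.61 and 7.66 CPM in WT), 0.45 ± 0.11 for NEU1 (43.3 and 39.6 CPM beside 32.8 and 28.4 CPM), 0.29 ± 0.29 for SMPD1 (13.9 and 9.59 CPM beside 9.96 and 9.36 CPM) and 0.27 ± 0.14 for CTSD (49.1 and 40.3 CPM beside 39.8 and 34.8 CPM). The smallest were -0.83 ± 0.42 for CTSZ, where the WT inputs themselves were 29.7 and 11.8 CPM and the null ones 11.9 and 11.1 CPM, -0.32 ± 0.15 for NAGLU (12.8 and 12.4 CPM beside 17.4 and 14.3 CPM), -0.23 ± 0.12 for HEXA (49.1 and 50.7 CPM beside 56.4 and 61.4 CPM) and -0.20 ± 0.23 for GLA (84.4 and 115 CPM beside 103.6 and 127 CPM). A level in a bulk lysate does not separate fewer expressing cells from less RNA per cell.

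In LARP4 null against WT total inputs, 0 of 35 members and 0.0143% of genes were called, with 1 member at an unadjusted p below 0.05, and DESeq2 also called 0 members. The ends of the list were CTSZ (-0.73 ± 0.41, 15.2 and 9.37 CPM), GUSB (-0.28 ± 0.19, 30.8 and 45.1 CPM beside 50.8 and 43.1 CPM in WT), ARSA (-0.20 ± 0.33, 3.40 and 5.91 CPM beside 5.79 and 5.12 CPM) and NAGLU (-0.19 ± 0.15, 13.7 and 13.7 CPM) on the low side. On the high side they were IDS (0.78 ± 0.28, 13.999 and 8.76 CPM), CTSC (0.30 ± 0.16, 64.3 and 50.8 CPM beside 49.2 and 45.5 CPM), GRN (0.25 ± 0.20, 63.2 and 85.3 CPM beside 68.1 and 58.6 CPM) and LAMP2 (0.24 ± 0.11, 201 and 228 CPM beside 190.4 and 178 CPM). The membrane members differed from WT by at most 0.24 in LARP4 null cells and 0.09 in AKAP1 null cells.

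Without CHX, 1 replicate, OMM enrichment of the members is given as values with no test. CD63 had 1.32 beside 1.59 and 1.34 with CHX, and NPC2 0.66 beside 1.48 and 1.38. GRN had 1.08 beside 0.65 and 0.31, TPP1 0.47 beside -0.03 and -0.41 and ARSB -0.53 beside -0.16 and -0.29. The other membrane members had 0.47 (LAMP1), -0.28 (LAMP2), -0.43 (SCARB2) and -0.30 (NPC1), and IDS had -1.48. The value without CHX lay between the WT replicates for 11 of 35 members, above both for 19 and below both for 5. The soluble median was 0.50 beside 0.39 and 0.20 with CHX. The median over all genes also rose, to -0.11 beside -0.27 and -0.30. The same count was not made over all genes, so whether these positions are particular to the members was not tested.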

How the data were processed

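Ribosome footprints from 12 libraries and RNA-seq from 14 were used. The authors aligned footprints to GRCh38 with TopHat after removing rRNA and tRNA reads with Bowtie (a tool also named in the submitters' processing notes) and deposited estimated counts per coding sequence, which need not be whole because a footprint is spread over its central positions, with positions that are not unique left out, and RPKM. RNA-seq was aligned with STAR, and the deposited values are raw counts per gene from featureCounts. A further deposited score, named as FPKM but 10 times what counts and lengths give, was not used. Broken lines (3 to 7 per RNA-seq library) were left out.

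Estimated counts were rounded and fitted with edgeR 4.0.16 (quasi-likelihood, R 4.3.3), with the lysate as a block, library totals for pulldowns and TMM factors for total inputs. Genes needed 64 footprints in each total input of the location or locations compared, or a mean RNA-seq count of 64. Adjusted p-values are Benjamini-Hochberg over all genes tested, with a threshold of 0.05. Log2 ratios per replicate are of CPM with 0.5 counts added. The study calls the replicates of OMM profiling biological. For the other groups the labels name no separate cultures, so p-values there measure the spread between these samples, which may be technical. The members and lists were chosen with earlier results of these data known. Named with values per library or replicate were the 5 membrane members, the 4 highest and 4 lowest members of each comparison, members called against the majority, every member where 8 or fewer were called, and 2 genes per end of each pathway list at the ER. Some genes that this rule or a count covers are not reported here. On simulated data with a log2 change of 1, 95.5% of changed genes were recovered for OMM footprints over 6454 genes, 68% for AKAP1 null minus WT and 56.5% for AKAP1 null total inputs, each over 13856 genes. With a log2 change of 0.5 the shares were 19%, 0% and 1%. Only a small set of genes was changed in the simulations and all others had no effect. Far more genes were called in the data for OMM footprints and for AKAP1 null minus WT, so these shares are not the recovery there. Alternatives were TMM or mapped-read scaling, DESeq2 1.42.0, other minimums, other blocks and leaving out each replicate. Coding sequences are those of GENCODE 44, and the deposited footprint annotation is an older Ensembl release. Intervals from 2 replicates are wide, and the lowest counts set the precision.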

Additional observations from a re-analysis of the deposited data

Results flagged for a closer look

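These results are listed because the enrichment of members differed between locations or genotypes in a test of the difference itself. Enrichment differed between the ER and the OMM for 19 of 23 members, between the ER and the cytosol for 23 and between the OMM and the cytosol for 9, each higher at the first-named location. Between AKAP1 null and WT cells, OMM enrichment of RNA differed for NPC2 (-0.61 on the log2 scale), NPC1 (0.52), SCARB2 (0.55), LIPA (0.57) and LAMP2 (0.66), where the median over all genes was 0.19. None of these 5 was called when any 1 of the WT or AKAP1 null replicates was left out, and with TMM scaling NPC2 alone was.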

How the results depend on the processing

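With 2 replicates a group, several counts of called members moved with the settings, and the cause was not tested. Among values of single named genes that were called in the main fit, none changed sign under an alternative. Values not called in the main fit were not followed in this way and may have changed sign. Cytosol values of single genes were not among them, and the replicates of LAMP1 there had opposite signs (0.37 and -0.22). With TMM scaling, members called numbered 18 for OMM footprints, 16 for OMM minus cytosol and 1 for AKAP1 null minus WT. With DESeq2 they numbered 19, 15 and 3, and 2 for LARP4 null minus WT. With the authors' mapped-read totals, taken from the RPKM, edgeR called 5 members in the cytosol. With the higher minimum of counts, fewer members could be tested, and 15 of 15 were called for ER minus cytosol and 5 of 14 for OMM minus cytosol. With no replicate block the fits called 5 members for OMM footprints, 11 for ER minus OMM, 1 for OMM minus cytosol, 7 for WT RNA-seq at the OMM and 0 for AKAP1 null minus WT. Total inputs share a replicate number across genotypes but nothing in the labels pairs them (correlations of deviations 0.342, 0.209 and -0.05), and a replicate block there also called 0 members. Leaving out 1 replicate gave 23 to 26 members at the ER, 17 to 18 for ER minus OMM, 23 to 25 for ER minus cytosol, 7 to 9 for OMM footprints, 6 to 13 for OMM minus cytosol, 3 in the cytosol either way, 6 to 12 for WT RNA-seq, 0 for AKAP1 null minus WT, 0 to 5 for LARP4 null minus WT and 0 for both total inputs. Shifts in these counts, under other settings or with 1 replicate left out, were not tested against the shift over all genes. The soluble minus membrane difference at the ER was -0.27 by RPKM, a change of unit that shifts all genes of a library almost alike and so tests little. Only values of single named genes that were called in the main fit were tallied. Under an alternative, 338 of those values kept their direction and side of the threshold, and 61 kept their direction but missed it. A value that gained a call, such as CD63 for AKAP1 null minus WT with DESeq2, could not enter this tally. The OMM pulldowns held 1025114 and 2506515 footprints, the fewest of the 12 footprint libraries.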
